A study of Mus musculus with 4 samples.

Results

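Solute carriers are membrane proteins that move small molecules across the plasma membrane and the membranes of organelles, and the genes described here are those whose symbol follows the Slc pattern of a family number, letters and a member number, with pseudogenes left out. Of 10941 genes in the table, 186 met this rule, from 44 families. Of these, 183 encode carriers, and Slc7a6os, Slc4a1ap and Slc6a19os are named after a carrier that they neighbour or bind. Transcripts were counted in 4 RNA-seq libraries of group 2 innate lymphoid cells (ILC2), tissue-resident lymphocytes that secrete type 2 cytokines, sorted from mouse adipose tissue. All mice carried 1 Il5 allele with a red fluorescent protein and Cre recombinase (R5/+), so that deletion is driven by the Il5 promoter in cells that have expressed Il5. Knockout mice also carried floxed Rptor (Rptor f/f), the gene for Raptor, without which the kinase complex mTORC1 does not form, and the other mice carried intact Rptor. The sources used here do not give age, sex or the number of animals behind a library.

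Library names put 2 libraries in each group, and the sample titles give the opposite genotype in all 4, so the 2 pairs are referred to as WT-named and KO-named. The libraries are called WT1, WT3, KO1 and KO3 after their count columns, and values are given in that order. Log2 fold changes are KO-named minus WT-named, so a negative one is lower in the KO-named pair. CPM are counts scaled by the product of library total and TMM factor, a correction per library from edgeR. The TMM factors were 1.20, 1.04, 0.88 and 0.91. Totals in CPM are thus not alike, and all tested genes summed to 832100, 957500, 1137000 and 1104000 CPM. Rptor did not separate the groups, at 14.5, 76.8, 0.971 and 33.9 CPM. Its log2 fold change was −1.39 (standard error, SE, 1.80), with an edgeR adjusted p of 0.906. Without WT3 it was 0.39, and without KO3 it was −5.58. Libraries held 15258779 to 18856226 counts, and a count of 0 allows up to 0.138 to 0.224 CPM, the level of 3 counts. The correlation of log CPM across genes was 0.714 between the WT-named and 0.635 between the KO-named libraries, and 0.585 to 0.659 across groups. All 10 ILC2 markers were detected in every library, with summed levels of 12640 to 15030 CPM. Single markers were less even. Il5 was at 542, 321, 86.6 and 177 CPM, wholly lower in the KO-named pair (edgeR adjusted p = 0.433). Thy1 was at 9.19, 30.3, 139.8 and 44.8 CPM, wholly higher there (edgeR adjusted p = 0.626), as were Areg and Icos. The other ILC2 markers overlapped between the groups. Of 9 mast cell markers 8 were in the table, at 6415 to 10430 CPM summed. The stromal markers Col1a2 and Gsn, the 2 of 8 in the table, summed to 824 CPM in KO1 and to 0.117 to 7.58 CPM in the others. The adipocyte-list genes Fasn and Dgat2, also 2 of 8, summed to 125, 38.6, 6.05 and 4.05 CPM, and Fasn was at 0 in KO3. The T cell, macrophage, B cell and endothelial lists had 2 of 8, 2 of 7, 1 of 4 and 3 of 4 genes in the table. The T cell gene Cd3e was at 0 in KO1 and KO3. Cd3g, the other T cell gene in the table, was at 235.7, 97.5, 158.6 and 101.1 CPM, with overlapping groups. The macrophage genes Adgre1 and Cd68 summed to 2.02, 12.98, 29.3 and 32.7 CPM. B cell and endothelial genes summed to at most 2.07 CPM. These are sums over a bulk sample, in which fewer cells of a type and less RNA per cell cannot be told apart, and their part in the results below was not tested.

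As background, mTORC1 is activated at the lysosome when amino acids are plentiful. Carriers take part on both sides of it. They bring in leucine, glutamine and arginine or release them from the lysosome, and Slc38a9 senses lysosomal arginine for the complex. In turn mTORC1 promotes translation of the transcription factor ATF4, which drives amino acid carrier genes, and holds back TFEB, which drives lysosomal genes. ILC2 of adipose tissue are known to take up fatty acids and amino acids from outside.

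Binding sequences of TFEB and ATF4 were looked for on both strands of the 250 bases before annotated starts of RefSeq genes. The assembly was GRCm38.p6, which mm10 names, and 143 of the 186 genes had windows. Such a start can lie inside the span of its gene, as that of Slc7a11 does. The TFEB-type sequence TCACGTGA was in 3 of 184 windows of solute carriers (1.63%) and in 258 of 32851 windows of all genes (0.785%). The ATF4-type sequence TGATGNAA was in 6 of 184 (3.26%) and in 1134 of 32851 (3.45%). A match is a description of the letters and not a bound site. Below are Slc25a36, which had the smallest unadjusted p among carriers at 100 CPM or more, Slc35a5, which had the other TFEB-type match in a window with a single start, and Slc7a11, the cystine importer and best known ATF4 target among carriers, shown 5′ to 3′ on the gene's strand with the match in capitals. The windows are chr9:97111042-97111291, chr16:45158674-45158923 and chr3:50443614-50443863, all on the minus strand, from RefSeq.
Slc25a36: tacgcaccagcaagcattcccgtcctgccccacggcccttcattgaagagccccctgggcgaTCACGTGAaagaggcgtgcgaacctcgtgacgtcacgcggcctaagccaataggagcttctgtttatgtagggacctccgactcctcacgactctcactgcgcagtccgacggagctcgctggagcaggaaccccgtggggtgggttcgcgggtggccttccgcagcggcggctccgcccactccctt
Slc35a5: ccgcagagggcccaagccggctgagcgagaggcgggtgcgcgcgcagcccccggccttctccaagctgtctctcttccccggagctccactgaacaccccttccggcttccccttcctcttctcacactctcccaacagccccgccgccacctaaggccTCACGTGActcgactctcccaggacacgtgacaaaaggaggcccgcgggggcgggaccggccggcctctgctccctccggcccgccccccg
Slc7a11: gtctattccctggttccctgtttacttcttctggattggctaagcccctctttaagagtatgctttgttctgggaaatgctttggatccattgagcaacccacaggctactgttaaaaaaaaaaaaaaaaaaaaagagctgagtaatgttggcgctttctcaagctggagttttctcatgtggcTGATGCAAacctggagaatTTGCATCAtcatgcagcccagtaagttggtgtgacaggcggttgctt
The match lay 188 to 181 bases before the start in Slc25a36 and 91 to 84 bases before it in Slc35a5, and Slc7a11 held 2 matches facing each other. Slc7a11 was at 0.107 to 0.299 CPM, 2 to 4 counts, in the libraries, so its level could not be compared. Slc25a36 and Slc35a5 had log2 fold changes of opposite sign, 1.76 and −3.54.

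The solute carriers together took 0.956%, 0.809%, 0.923% and 0.763% of counts. They summed to 7972, 7753, 10520 and 8441 CPM. KO1 was thus the highest in CPM and WT1 the highest by share of counts, with TMM factors of 0.88 and 1.20. Counts above 0 were found for 161 of the 186 in all 4 libraries, and 36 had 10 or fewer in each. Fewer solute carriers reached 100 counts in the KO-named libraries, 72 and 82, than in the WT-named ones, 109 and 96. As shares of the 186 these were 58.6%, 51.6%, 38.7% and 44.1%, where over all genes the shares were 67.1%, 60.2%, 49.3% and 56.1%. The KO-named libraries thus held fewer well-counted genes of any kind. Counts of exactly 0 went the other way, with 16 and 12 solute carriers at 0 in the WT-named and 1 and 7 in the KO-named libraries, and with 681 and 645 against 114 and 273 genes over the whole table.

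Per kilobase of transcript, the most abundant carrier was Slc25a3, which brings phosphate into mitochondria, at a mean of 385 CPM per kb. Slc38a2, a sodium-coupled importer of glutamine and other neutral amino acids, followed at 178 CPM per kb. Next came Slc25a5, an ADP/ATP exchanger of mitochondria, at 137, and Slc1a6, a glutamate importer best known from neurons, at 87.9 CPM per kb. Slc7a14, a lysosomal protein of the cationic amino acid carrier family, was at 76.7, and Slc3a2, the heavy chain that CD98-type amino acid exchangers need, at 73.4 CPM per kb. The first 10 held 6 amino acid carriers of families 1, 3, 7 and 38. The other 4 were Slc25a3, Slc25a5, the zinc carrier Slc39a13 and the sugar carrier Slc50a1. Amino acid and mitochondrial carriers were also the groups with the highest summed levels in each library, as the plot of summed levels by role shows.

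**Figure D1:**
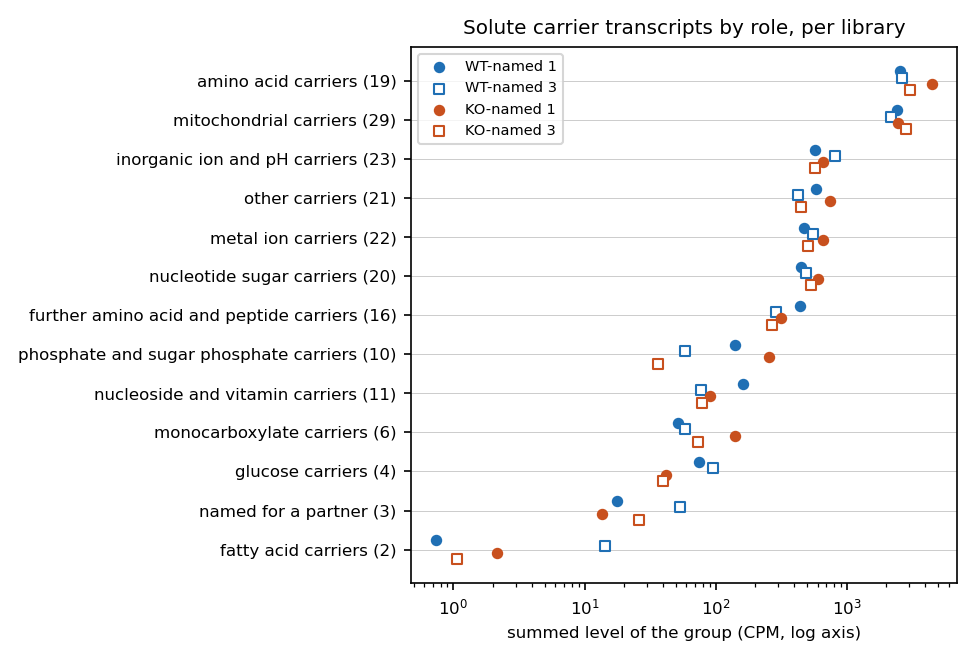
Summed level (CPM, log scale) of the solute carriers of each role in the 4 libraries, with 1 point per library. Amino acid carriers sum to 2565 to 4499 CPM and mitochondrial carriers to 2175 to 2815 CPM, above every other role in each library, and the 2 fatty acid carriers lie lowest at 0.735 to 14.2 CPM.

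The question of the comparison is which carriers ILC2 of adipose tissue express differently once mTORC1 is deleted. No solute carrier passed edgeR's quasi-likelihood test at an adjusted p of 0.05, out of 138 tested, where 0 of 8753 genes did (0%), and their adjusted p ran from 0.433 to 0.999. The other 48 were too low to be tested, with means of at most 3.13 CPM. At an unadjusted p under 0.05 there were 16 solute carriers (11.6%), against 9.81% of all tested genes. Of the 16, 4 were higher in the KO-named libraries (2.9%, against 3.47% of all genes) and 12 lower (8.7%, against 6.34%). These shares lie close to those of all genes. The median log2 fold change of the solute carriers was −0.07 (quartiles −1.80 and 0.74), and that of all tested genes was 0.05 (quartiles −1.11 and 0.90). With library size alone as the scaling these medians were −0.35 and −0.28, a shift that all values below share. In 86 of the 138 the difference was smaller than its SE, and 77 changed sign when some library was left out. With 2 libraries a group the smallest exact permutation p for a single gene is 0.333.

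Libraries of a group often lay far apart. Within the WT-named pair 47 of 138 differed more than 4-fold (34.1%), against 26.1% of all tested genes, and within the KO-named pair 61 did (44.2%), against 39.5%. The difference between these shares was not tested, and a larger share of the solute carriers was low, with 21 of 138 under 4 CPM and 51 at 4 to 20 CPM, against 963 and 2674 of 8753 genes. For 17 solute carriers (12.3%) the KO-named pair was wholly above the WT-named pair, where this held for 17.8% of all genes, and for 33 (23.9%) it was wholly below, where this held for 22.1%. Log2 fold changes were below 0 for 71 of 138 (51.4%), against 48.6% of all tested genes. The direction went with the level. Of the 15 solute carriers at 100 CPM or more, 12 had a log2 fold change above 0 and their median was 0.38, beside 0.32 for the 1733 genes of that level. With library size alone 8 of the 15 were above 0, with a median of 0.045. At 4 to 20 CPM 34 of 51 were below 0 (66.7%) with a median of −1.51, beside 60.1% and −0.66 for the 2674 genes of that level.

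**Figure D2:**
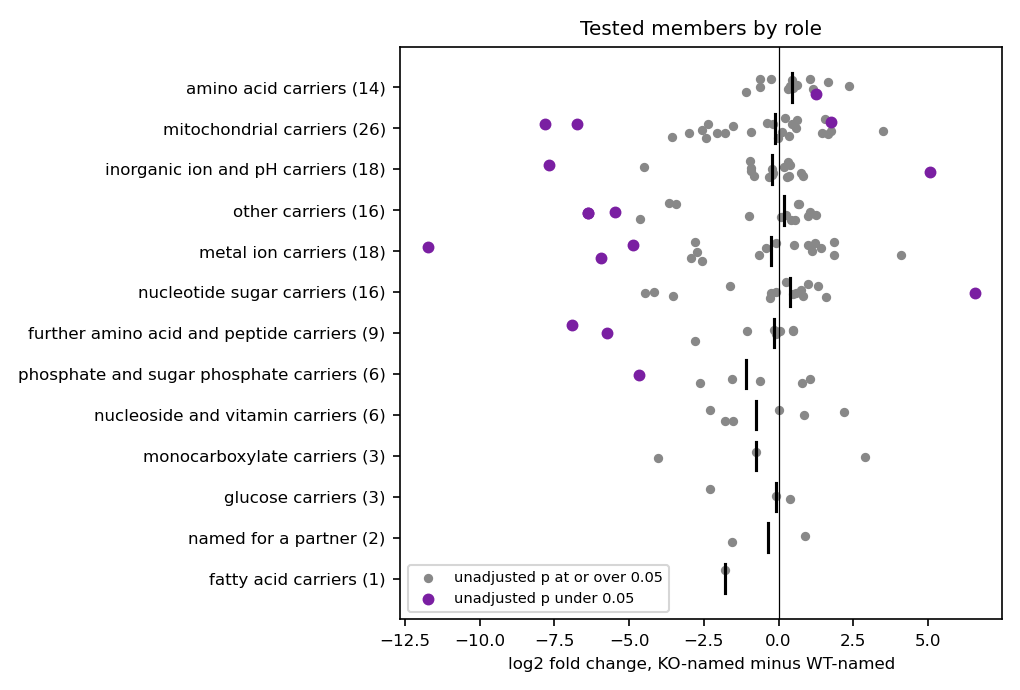
Log2 fold change (KO-named minus WT-named, edgeR) of the 138 tested solute carriers by role, 1 point per gene. A bar marks the median of each role, and colour marks an unadjusted p under 0.05. Levels are not drawn. Carriers at 100 CPM or more lie between −1.09 and 1.76, and those at 4 to 20 CPM spread widely and mostly below 0. The lowest point, Slc39a11 at −11.7, has no count in either KO-named library, so its position depends on the fit and is no bound.

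Amino acid carriers of families 1, 3, 7 and 38, most of which work at the plasma membrane, gave the highest summed level of any role. Of 19 members 14 were tested, 10 with a log2 fold change above 0 and 4 below, at a median of 0.47. That median was −0.61 without KO1 and 1.13 without KO3. Slc38a2 was at 982, 905, 1281 and 1177 CPM, so the KO-named pair was wholly above the WT-named pair, by 0.38 on the log2 scale (SE 0.34). Slc38a1, a related glutamine importer, was at 325, 329, 553 and 344 CPM, with KO3 little above the WT-named libraries. Scaled by library size alone, Slc38a2 and Slc38a1 had log2 fold changes of 0.045 and 0.122, and both overlapped between the groups. Slc7a14 (chromosome 3, 31202854 to 31310567) had 267, 536.5, 999.9 and 925.5 CPM, and both KO-named libraries were the higher ones. Its log2 fold change of 1.26 (SE 0.44) had an unadjusted p of 0.0161 and an edgeR adjusted p of 0.433, and it stayed between 0.82 and 1.92 when any library was left out. Slc1a6 also had both KO-named libraries higher, at 81.4, 149, 292 and 191 CPM, with a log2 fold change of 1.07 (SE 0.605). Slc38a6, a further member of the glutamine carrier family, went the other way at 311, 272, 220.4 and 155 CPM.

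The CD98-type exchangers, which trade glutamine for leucine and other large amino acids, gave no common direction. The heavy chain Slc3a2 was at 175, 170.2, 378 and 102 CPM, so the KO-named libraries lay on both sides of the WT-named pair, and its log2 fold change was −0.75 without KO1 and 1.12 without KO3. Its partner Slc7a5, the leucine importer LAT1 that feeds mTORC1 in activated T cells, was scarce, at 6.43, 0.161, 7.17 and 13.7 CPM. The other light chain Slc7a8 (LAT2) was more abundant than Slc7a5 in every library, also per length, at 156, 175, 117 and 38.7 CPM and with both KO-named libraries lower. Its log2 fold change of −1.09 (SE 0.765) was −2.09 to −0.51 when a library was left out. Slc1a5, the glutamine importer ASCT2, was at 65.1, 38.8, 45.9 and 41.3 CPM, with overlapping groups. Slc7a1, an arginine importer, varied more within the groups than between them, at 90.1, 12.8, 119 and 36.7 CPM, and so did Slc7a6, an arginine and leucine exchanger, at 28.9, 20.7, 102.5 and 8.74 CPM.

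**Figure D3:**
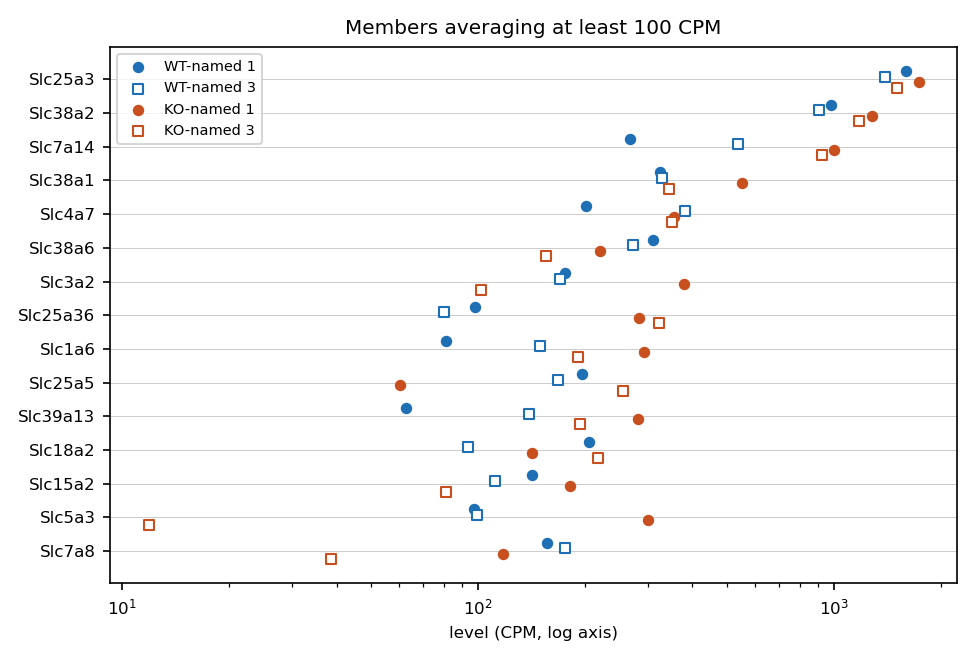
Level (CPM, log scale) of the 15 solute carriers averaging at least 100 CPM in the 4 libraries, 1 point per library. Slc25a3 and Slc38a2 stay within 1392 to 1727 and 905 to 1281 CPM. The KO-named points are both above the WT-named ones for Slc38a2, Slc7a14, Slc38a1, Slc25a36, Slc1a6 and Slc39a13. Scaled by library size alone, which is not drawn, Slc38a2 and Slc38a1 overlap between the groups.

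Other carriers act at the lysosome, where mTORC1 is activated. Slc38a9, the arginine sensor (chromosome 13, 112656189 to 112738752), was at 44.9, 16.7, 314 and 4.87 CPM. KO1 was 6.98 times the next library and KO3 was the lowest, so the log2 fold change of 2.37 (SE 1.41) became −2.65 without KO1. KO1 is the library that held the stromal transcripts, whose part in this value was not tested. Slc36a1, which exports small amino acids from the lysosome, was at 17.5, 39.9, 0.896 and 0.176 CPM, with both KO-named libraries far below. Slc15a4, a lysosomal histidine and peptide carrier with a role in innate immune signalling, was at 6.62, 47.7, 0.448 and 0 CPM, and again both KO-named libraries were lower. Their log2 fold changes were −5.73 (SE 2.33) and −6.90 (SE 2.80), each with an edgeR adjusted p of 0.46, and DESeq2 gave adjusted p of 0.00115 and 0.00107. Neither DESeq2 call held without WT3, and the edgeR value of Slc15a4 ran from −12.03 without KO1 to −4.85 without WT3. Over a list of 10 carriers linked to mTORC1, all tested, 5 were above and 5 below 0 at a median of 0.14. EdgeR called 0 of them, where it called 0% of all genes. DESeq2 called 2 of the 10, Slc36a1 and Slc15a4, both lower, where it called 7.5% of all genes lower. The list is short, and the difference was not tested. The median was −0.21 without WT3, −1.15 without KO1 and 0.52 without KO3. The 10 carriers listed as ATF4 targets had 6 in the table and 5 tested. EdgeR called 0 of these, against 0% of all genes, and DESeq2 0, against 10.2%. Of the 5, 4 were above 0 at a median of 0.475. That median was −0.32 without KO1 and 1.12 without KO3.

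Of the remaining 16 carriers of amino acids, peptides and neurotransmitters 9 were tested, 3 above and 6 below 0. Slc15a2, a peptide importer, was abundant at 142, 112, 181 and 81.1 CPM, with KO1 highest and KO3 lowest. Slc6a4, the serotonin importer, was at 69.0, 1.93, 23 and 75.9 CPM, so 1 library of each group was high. Slc18a2, which loads monoamines into vesicles, was present throughout at 205, 93.7, 141 and 218 CPM, and the groups overlapped. Both genes are also known from mast cells, and mast cell markers summed to 7780, 6415, 10430 and 7925 CPM, whose part in these levels was not tested. Slc6a13, a GABA importer, was at 44.5, 17.7, 41.8 and 44.5 CPM.

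Fuel carriers were few. The glucose importer Slc2a1 (GLUT1), known to depend on mTORC1 in T cells, was at 54.9, 54.8, 15.98 and 6.45 CPM, so the KO-named pair was wholly below the WT-named pair. The log2 fold change of −2.29 (SE 1.47) had an edgeR adjusted p of 0.712 and a DESeq2 adjusted p of 0.345, and it was −3.08 to −1.79 when a library was left out. Slc2a3 (GLUT3), a high-affinity glucose importer, was at 19.9, 40.8, 24.9 and 33.03 CPM with overlapping groups, and Slc2a7, a hexose carrier, was below 1 CPM in every library. Among monocarboxylate carriers, Slc16a1 (MCT1), which moves lactate and pyruvate, was at 23.6, 30.6, 0.971 and 2.29 CPM. Both KO-named libraries were lower, with a log2 fold change of −4.05 (SE 2.09) and an adjusted p of 0.605 by edgeR and 0.0255 by DESeq2. Slc16a6, a carrier of ketone bodies and taurine, went the other way at 24.5, 1.502, 137 and 54.6 CPM. Slc16a10, an aromatic amino acid carrier, was at 3.68, 25.97, 1.34 and 16.2 CPM, with 1 high library in each group.

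The fatty acid carriers of family 27, which bring in long-chain fatty acids and activate them, were barely detected. Slc27a1 was at 0.460, 8.80, 1.94 and 0.704 CPM and Slc27a4 at 0.276, 5.42, 0.224 and 0.352 CPM, and in both only WT3 stood out. Slc27a1 had a log2 fold change of −1.80 with WT3 and of 1.55 without it. Slc25a20, which passes acylcarnitines into mitochondria for oxidation, had the same shape at 0.781, 26.02, 0.299 and 1.94 CPM, and without WT3 its log2 fold change of −3.57 became 0.63. Slc22a5, the importer of carnitine, was at 1.98, 11.1, 0.149 and 0 CPM, and both KO-named libraries were lower.

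Of 29 mitochondrial carriers 26 were tested, 12 above and 14 below 0 at a median of −0.11. It was 0.19 without WT1, 0.091 without WT3 and −1.96 without KO3. The most abundant, Slc25a3, was at 1592, 1392, 1727 and 1506 CPM, with a log2 fold change of 0.12 (SE 0.33). Slc25a5 was at 195, 168, 60.4 and 256 CPM and Slc25a4, the other ADP/ATP exchanger, at 76.0, 35.3, 71.0 and 59.5 CPM, with overlapping groups in both. The log2 fold change of Slc25a5 was 0.51 without KO1 and −1.60 without KO3. Slc25a36 (chromosome 9, 97075281 to 97111041), which carries pyrimidine nucleotides into mitochondria, did not overlap between the groups. It was at 98.0, 80.0, 283 and 322 CPM, and both KO-named libraries were higher. Its log2 fold change of 1.76 (SE 0.545) had an unadjusted p of 0.00858, an edgeR adjusted p of 0.433 and a DESeq2 adjusted p of 0.592, and it lay between 1.66 and 1.90 when any library was left out. Slc25a26, the S-adenosylmethionine carrier, was low in the WT-named pair, at 2.57 and 2.95 CPM, and reached 38.2 and 24.3 CPM in the KO-named pair (DESeq2 adjusted p = 0.0546).

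A pair of mitochondrial carriers had at most 3 counts in each KO-named library. Slc25a39 (chromosome 11, 102402969 to 102408675), the mitochondrial glutathione importer, was at 13.1 and 20.2 CPM in WT1 and WT3 and had 1 count in each KO-named one. Its pooled level was 249-fold lower there (exact 95% counting interval 68.7 to 2060). Slc25a24, an ATP-magnesium and phosphate exchanger, was at 22.9, 8.64, 0.224 and 0.0587 CPM, and again the groups did not overlap. DESeq2 gave adjusted p of 0.000157 and 0.000385, and edgeR 0.433 for both. Such intervals pool the counts of a group and cover counting error only, so they leave out the variation between its libraries. The reads also carry no molecular identifiers, and several can come from 1 molecule.

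Metal carriers included the solute carrier with the smallest p, Slc39a11, a zinc carrier (chromosome 11, 113244851 to 113650200). It was at 39.8 and 8.26 CPM in WT1 and WT3 and had no count in KO1 or KO3. The pooled level was at least 256-fold lower there, against a floor of 3 counts over the group, and that bound was 83.9-fold without WT1, 404-fold without WT3, 144-fold without KO1 and 113-fold without KO3. The unadjusted p was 0.00663, with an adjusted p of 0.433 by edgeR, 4.67e-05 by DESeq2 and 0.0129 by limma-voom. Slc30a1, the zinc exporter of the plasma membrane, was at 19.4, 32.7, 0.373 and 0.469 CPM, and both KO-named libraries were lower (DESeq2 adjusted p = 0.000457). Slc30a7, which loads zinc into the Golgi, was at 43.3, 53.8, 7.02 and 5.63 CPM and did not pass either tool. Other zinc carriers were higher in both KO-named libraries. Slc39a13 was at 62.9, 139, 282 and 194 CPM, with a log2 fold change of 1.24 (SE 0.64) and an edgeR adjusted p of 0.609. Slc39a6 was at 20.7, 42.2, 50.3 and 119 CPM, and KO3 was the highest. Slc39a9 was at 0.460, 1.99, 25.8 and 16.1 CPM, with a DESeq2 adjusted p of 0.033. Over the 18 tested metal carriers 8 were above and 10 below 0, at a median of −0.25. It was 0.459 without WT1, 0.327 without WT3, −0.753 without KO1 and −1.90 without KO3.

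Among carriers of inorganic ions and pH, 8 of 18 tested were above and 10 below 0. The sodium bicarbonate carrier Slc4a7 was the most abundant of them in CPM, at 201, 380.1, 354 and 350.4, with WT1 the low library. Slc12a2, the sodium, potassium and chloride importer, was at 78.6, 111, 99.9 and 0.763 CPM, so KO3 alone was low, and the log2 fold change of −0.92 was 0.056 without KO3. Slc9a7, a sodium and proton exchanger of the Golgi, was at 25.5, 21.8, 0.224 and 0 CPM, with both KO-named libraries lower. Its pooled level was 242-fold lower (exact 95% counting interval 82.4 to 1170), 106-fold without KO3 and at least 135-fold without KO1, with an adjusted p of 0.433 by edgeR, 0.000149 by DESeq2 and 0.0162 by limma-voom. Slc8a1, a sodium and calcium exchanger, was low in 3 libraries, at 0.322, 0.107 and 0.822 CPM, and reached 14.1 CPM in KO3.

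Nucleotide sugar carriers, which supply the Golgi and endoplasmic reticulum with building blocks of glycans, had 9 of 16 tested members above and 7 below 0 at a median of 0.375. The median was −1.85 without KO1, 1.00 without WT1 and 0.015 without WT3, and it was −0.185 by limma-voom. Slc35d3 (chromosome 10, 19847917 to 19856634), needed for platelet dense granules in mice, was at 0.138, 0.376, 37.3 and 12.3 CPM, with the KO-named pair higher. Its log2 fold change of 6.56 (SE 2.45) had an adjusted p of 0.433 by edgeR and 0.000261 by DESeq2. Slc35b4, a carrier of UDP-xylose and UDP-N-acetylglucosamine, was at 36.1, 24.8, 1.87 and 0.880 CPM, with the groups the other way round (DESeq2 adjusted p = 0.0083). Slc35a1, the carrier of CMP-sialic acid, was at 59.05, 11.6, 35.1 and 82.5 CPM, and Slc35b1, which exchanges ATP and ADP across the endoplasmic reticulum, at 6.07, 69.9, 3.06 and 60.95 CPM. Both had a high and a low library in each group. Slc35a5, whose start is printed above, was at 8.91, 94.8, 0.149 and 8.74 CPM, and WT3 was 10.6 times the next library.

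The phosphate importer Slc20a1 and the sugar phosphate carrier Slc37a3 were both high in KO1 and low in KO3, at 37.7, 23.8, 112 and 16.5 CPM and at 65.1, 23.2, 138 and 14.6 CPM. Slc33a1, the acetyl-CoA carrier, was likewise high in KO1 and low in KO3, at 46.5, 30.1, 144.5 and 8.04 CPM, as did Slc5a3, the inositol importer, at 97.7, 99.5, 299 and 11.8 CPM. The count of Slc5a3 is uncertain because the gene overlaps Mrps6. Slc29a1, the equilibrative nucleoside carrier, was even across libraries at 58.8, 43.1, 56.9 and 47.1 CPM. Slc44a2, a choline carrier, was at 66.4, 6.76, 0.373 and 6.34 CPM, with WT1 high. Of the solute carriers 26 overlap another protein-coding gene in RefSeq, among them Slc39a11, Slc9a7, Slc15a4, Slc1a6, Slc38a6 and Slc39a9. Counting other RefSeq genes of any kind, 79 do, then also Slc7a14, Slc38a9, Slc38a1, Slc2a1, Slc25a3, Slc25a39, Slc30a1 and Slc39a13. Without known strandedness reads of overlapping genes cannot be told apart.

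DESeq2 called 18 solute carriers of 151 with an adjusted p (11.9%), where it called 10.2% of all genes. It called 3 higher in the KO-named libraries (1.99%, against 2.67% of all genes), namely Slc35d3, Slc39a9 and Slc8a1, and 15 lower (9.93%, against 7.5%). The shares are near those of all genes. The lower ones were Slc39a11, Slc25a39, Slc9a7, Slc15a4, Slc25a24, Slc22a5, Slc30a1, Slc36a1, Slc35b4 and Slc16a1, described above, and 5 more. These are Slc14a1, a urea carrier, Slc17a9, a vesicular ATP carrier, Slc37a4, the glucose-6-phosphate carrier, Slc48a1, a heme carrier, and Slc49a4 of the lysosome. In 13 of the 18 every library of 1 group had 10 or fewer counts. DESeq2 was repeated with each of the 4 libraries left out in turn, and Slc39a11, Slc25a39, Slc25a24 and Slc9a7 were called each time. Slc30a1, Slc36a1 and Slc15a4 were not called without WT3, Slc35d3 not without KO1, and Slc35b4 not without either WT-named library. Slc16a1 was called only without KO3 and Slc39a9 only without WT3 among these 4 repeats. Slc37a4, Slc49a4 and Slc8a1 were called in none of them, and Slc48a1 and Slc22a5 only without WT1. Slc14a1 was not called without WT3 or without KO3. Slc17a9, called only without WT3, had 140, 3, 1 and 1 counts, so WT1 alone was high. Its pooled level was 2.45-fold lower without WT1 (exact 95% counting interval 0.281 to 29.3). Limma-voom called 3 of 138 (2.17%, against 2.3% of all genes), Slc39a11, Slc25a39 and Slc9a7. All 3 were lower, where 1.78% of all genes were called lower and 0.514% higher.

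**Figure D4:**
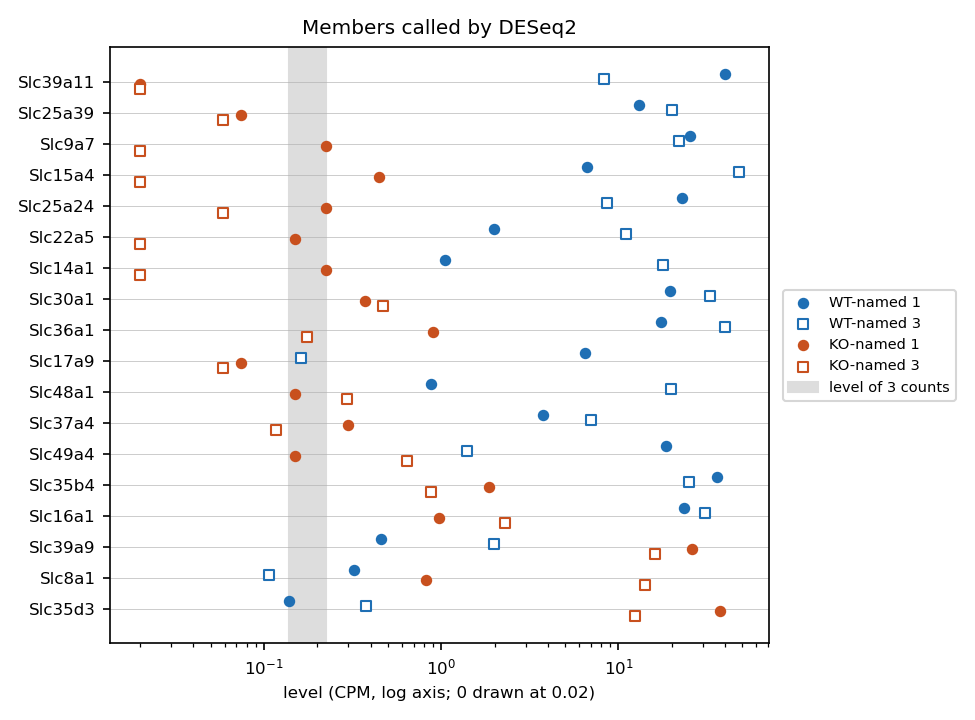
Level (CPM, log scale) in the 4 libraries of the 18 solute carriers with a DESeq2 adjusted p under 0.05, 1 point per library, with counts of 0 drawn at the left edge and the level of 3 counts shaded. The 15 lower ones have both KO-named points below both WT-named points and many of these near that level, and Slc35d3, Slc39a9 and Slc8a1 lie the other way.

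The authors' deposited table held 12 solute carriers of 186 at q under 0.05 (6.45%), where 4.17% of all genes were, 3 higher (against 1.13% of all genes) and 9 lower (against 3.03%). Of the 12, 10 were also called by DESeq2 on the 4 libraries, which called 18. In the authors' deposited table Slc30a1 had a log2 fold change of −6.52 (q = 1.59e-09), Slc9a7 one of −7.01 (q = 6.8e-07) and Slc25a24 one of −5.69 (q = 4.7e-05). For Slc25a39 the authors' deposited table gave 0.152 (q = 0.995), far from the values of these libraries. For the lysosomal carriers Slc15a4 and Slc36a1 it gave −0.393 (q = 0.995) and −2.43 (q = 0.907). Slc16a1, Slc35b4, Slc14a1, Slc8a1 and Slc39a9, called by DESeq2 on the 4 libraries, were also not at q under 0.05 there. Over all genes the fold changes of the authors' deposited table differed from those of DESeq2 by a median of 0.486 on the log2 scale. The sign was the same for 82.7%, so that table was not made from these 4 columns in the same way.

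Partners of carriers and transporters under other symbols were taken as a list of 28, of which 20 were in the table and 19 tested, 7 above and 12 below 0 at a median of −0.20, and of −0.49 to −0.15 when a library was left out. EdgeR called 0, where it called 0% of all genes. DESeq2 called 3 of 20, Cd36, Mcu and Mfsd10, all lower, where it called 7.5% of all genes lower. The difference was not tested. Cd36 was at 1.75, 53.9, 0 and 0 CPM, with an adjusted p of 0.433 by edgeR and 8.19e-05 by DESeq2. Emb (embigin), a chaperone of monocarboxylate carriers, was abundant and even at 1441, 1936, 1795 and 1740 CPM, and Bsg (basigin), the chaperone of Slc16a1, was at 116.5, 53.4, 44.7 and 65.6 CPM. Mpc1, a subunit of the mitochondrial pyruvate carrier, was even as well at 234, 229.5, 258 and 267 CPM. Mcu, the mitochondrial calcium uniporter, was at 20.4, 35.5, 0.299 and 0.587 CPM, with both KO-named libraries lower and an adjusted p of 0.439 by edgeR and 0.000519 by DESeq2. Txnip, which promotes removal of glucose importers from the surface, was at 104, 85.0, 46.7 and 19.9 CPM, lower in both KO-named libraries like Slc2a1, and neither passed the test.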

How the data were processed

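ILC2 sorted from adipose tissue gave total RNA by Trizol and Smart mRNA-seq libraries, per the labels' protocols. Per the submitters' processing notes, reads were processed on mm10. The sources used here do not name the aligner, the counting program, the annotation or the strandedness. The authors deposited an expected count per gene and library, of which 20.0% to 21.6% are not whole, and these were rounded. They also deposited the log2 fold change, p-value and q-value of a DESeq2 comparison, per the file headers. Another 12 columns of per-sample values were not used.

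Groups follow the library names. Each group has columns numbered 1 and 3, where the labels use 1 and 2, so columns numbered 3 were tied to a group only. No label says that replicates are separate animals, and the p-values then reflect only how these samples vary, possibly for technical reasons. Libraries of a group differed beyond sampling noise (chi-square over degrees of freedom 273.5 and 444.7) and each was kept.

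Genes were tested with the quasi-likelihood method of edgeR 4.0.16 (R 4.3.3), 2-sided, with TMM scaling, filterByExpr and Benjamini-Hochberg adjustment over all 8753 genes tested, and the scripts were tested on simulated data. The SE is the log2 fold change divided by the square root of F. Alternatives were DESeq2 1.42.0, limma-voom (limma 3.58.1), other scalings, filters, a replicate block and leaving out each library. Fold bounds use 3 counts over the group.

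Genes were named by a rule. It took 35 carriers of interest, the 3 highest per kilobase in each role, and those with an unadjusted p under 0.05 or a DESeq2 call at a mean of at least 4 CPM, with at most 15 and 10 in each direction. Other named genes and the printed promoters were chosen after their values were seen. The members and lists were chosen with earlier results of these data known. Slc16a3, Slc19a1, Slc25a1, Slc27a2, Slc2a6 and Slc40a1 are not analysed here, and a gene that the rule names is not reported here.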

Additional observations from a re-analysis of the deposited data

How the results depend on the processing

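At an adjusted p of 0.05, edgeR called 0 solute carriers under every other scaling, filter, rounding and block tried. DESeq2 called 18, not all of which held when a library was left out, and limma-voom called 3. Over all genes DESeq2 called 961, limma-voom 201, edgeR with the replicate block 25 and edgeR without a library 0 to 7. Deviations of same-numbered libraries from their group means had a correlation of −0.007 across genes. With so few libraries a group, this cannot tell whether the shared numbers pair the libraries. At an unadjusted p under 0.05, the 4 higher solute carriers were 12 with no filter on low counts and 2 to 7 without a library, and the 12 lower ones were 27 by DESeq2, 6 with the replicate block and 4 to 21 without a library. The median log2 fold change of −0.07 was 0.21 by DESeq2, −0.37 by limma-voom, −0.35 with library size alone, 0.13 with no filter, −0.38 with the replicate block and −0.79 to 0.20 without a library. DESeq2, the fit with no filter and the fits without a library also took in carriers that the main fit left untested. Their counts and medians, here and for the roles and lists above, can thus cover other genes than the main ones. The part of this or of any other cause in the shifts was not tested. Depth limits the low carriers, of which the main fit left 48 untested.

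Of 62 named carriers tested, 11 changed sign under another setting. With library size alone, log2 fold changes were −0.304 for Slc15a2, −0.101 for Slc18a2, −0.224 for Slc25a3, −0.139 for Slc25a4, −0.32 for Slc29a1, −0.056 for Slc35b3, −0.021 for Slc4a7 and −0.217 for Slc50a1. By limma-voom they were −0.122 for Slc15a2, 0.071 for Slc2a3, −0.408 for Slc33a1, −0.116 for Slc35b3 and −0.034 for Slc37a3. With the replicate block they were −0.055 for Slc15a2, 0.006 for Slc2a3, −0.13 for Slc33a1, −0.031 for Slc35b3 and −0.059 for Slc50a1. With no filter they were −0.072 for Slc15a2 and −0.071 for Slc29a1, and with at least 10 counts in all −0.032 and −0.036.

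Without a library 29 changed sign. Their ranges were −6.941 to 0.056 for Slc12a2, −0.632 to 0.504 for Slc15a2, −3.489 to 1.377 for Slc16a10, −0.11 to 0.92 for Slc18a2, −0.507 to 0.147 for Slc1a5, −0.885 to 1.866 for Slc20a1, −3.845 to 1.601 for Slc20a2, −1.233 to 0.361 for Slc24a5, −5.493 to 0.63 for Slc25a20, −0.151 to 0.864 for Slc25a4, −1.596 to 0.507 for Slc25a5, −2.759 to 1.554 for Slc27a1, −0.11 to 0.247 for Slc29a1, −0.514 to 0.618 for Slc2a3, −0.224 to 1.433 for Slc2a7, −3.649 to 0.227 for Slc30a5, −2.24 to 1.909 for Slc33a1, −0.001 to 2.329 for Slc35a1, −3.664 to 2.521 for Slc35b1, −1.131 to 0.936 for Slc35b3, −1.58 to 1.682 for Slc37a3, −2.646 to 3.348 for Slc38a9, −0.802 to 0.078 for Slc39a1, −0.754 to 1.12 for Slc3a2, −0.131 to 0.884 for Slc4a7, −0.89 to 0.65 for Slc50a1, −0.609 to 4.661 for Slc6a4, −0.467 to 2.574 for Slc7a1 and −1.489 to 2.042 for Slc7a6.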

Other observations

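The highest library exceeded the next by more than 4-fold in 9 of the 138 tested solute carriers for WT1, 9 for WT3, 1 for KO1 (Slc38a9) and 2 for KO3 (Slc8a1 and Slc25a46). These are 6.52%, 6.52%, 0.72% and 1.45%, where the shares over all tested genes were 3.72%, 3.08%, 3.47% and 2.56%, and the differences were not tested. WT3 led for Slc35g1, at 28.6 times the next library, Slc12a7, at 25.3 times, and Slc48a1, a heme carrier, at 22.5 times. WT1 led for Slc49a4, at 13.3 times, and Slc44a2, at 9.82 times.

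Mitochondrial carriers and carriers of ions and pH were the most scattered roles in the KO-named pair. KO1 and KO3 differed more than 4-fold for 15 of 26 tested mitochondrial carriers (57.7%) and for 11 of 18 ion carriers (61.1%), where 39.5% of all tested genes did. Within the WT-named pair the shares were 19.2% and 33.3%, where 26.1% of all tested genes did. Nucleotide sugar carriers were scattered in both pairs, with 9 of 16 in the WT-named (56.2%) and 8 of 16 in the KO-named pair. Of the 14 tested amino acid carriers 2 differed so within the WT-named pair (14.3%) and 3 within the KO-named pair (21.4%).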
